A study of Mus musculus with 8 samples.

Results

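C/D box small nucleolar RNAs were examined in RNA sequencing of 8 Myc-CaP mouse prostate tumors. The members are the genes whose name in the count files is Snord followed by a digit, with that capitalization. They number 68 of the 38115 genes listed. Another 332 genes are named SNORD in capitals in the same files and are not members. All 68 members were found in GENCODE M21, the annotation of GRCm38 (mm10), as transcripts of 64 to 238 bases with a median of 78.5 bases.

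The tumors were 2 primary and 2 metastatic tumors of the androgen sensitive Myc-CaP line (AS) and 2 primary and 2 metastatic tumors of its castrate resistant derivative (CR). Cells of either line were injected into the anterior prostate lobes of male FVB mice, which were intact or had been castrated by surgery beforehand. The labels call the metastases matched, but they give neither the primary tumor that each one matches nor the organ it came from. All tumors descend from 1 cell line driven by a prostate Myc transgene, so the tumors of a phenotype are not independent cancers, and it is not stated that each came from a separate mouse. P-values therefore measure the spread between these tumors. The 4 AS libraries and the 4 CR libraries also carry 2 separate series of numbers in their titles, so phenotype and library series cannot be told apart. Tumors are named here by group and number (primary AS1, metastatic CR2), and the numbers pair nothing.

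A C/D box small nucleolar RNA carries a C box near its 5′ end and a D box near its 3′ end. The boxes bind fibrillarin (Fbl), Nop56, Nop58 and the protein of Nhp2l1, and the bases upstream of a D box pair with a target RNA so that fibrillarin methylates 1 nucleotide of the target. Most targets lie in ribosomal RNA, a few lie in spliceosomal RNA, and a small number of C/D RNAs act in the cutting of the ribosomal precursor instead. In mammals most of these RNAs are released from introns of other genes, often genes of ribosomal proteins or noncoding genes with snoRNA in their name, and a few have promoters of their own.

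Of the 68 members, 34 lie in an intron of a gene on the same strand, 27 lie within an annotated exon, 4 overlap an exon in part and 3 (Snord13, Snord104 and Snord118) lie in no gene on the same strand. The 65 others lie in 47 host genes, and members are spread over 17 chromosomes. The D box letters CTGA were found in all 68 members and the C box letters TGATGA in 49 (72.1%). A C box followed by a D box was found in 49 members on the sense strand (72.1%) and in 0 on the opposite strand. The same order was found in 0 of 37 H/ACA box RNAs (Snora), in 5 of 9 small Cajal body RNAs (Scarna; 55.6%), and in 9 of 1962 annotated miRNA hairpin genes of 64 to 238 bases (0.459%). The absence of these letters says only that they are not in the annotated window.

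The members on which the results turn are given below as annotated in GENCODE M21 (GRCm38). The first C box and the last D box are in capitals. In Snord22 only the D box is marked, because the letters TGATGA do not occur in it. Snord22 and Snord17 are shown for the difference between metastatic and primary tumors, and Snord21, Snord118 and Snord15a for the difference between phenotypes. Snord65 is shown as an example of a short member.
Snord22: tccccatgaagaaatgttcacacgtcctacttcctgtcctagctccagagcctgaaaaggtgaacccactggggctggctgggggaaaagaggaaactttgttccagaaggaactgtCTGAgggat
Snord17: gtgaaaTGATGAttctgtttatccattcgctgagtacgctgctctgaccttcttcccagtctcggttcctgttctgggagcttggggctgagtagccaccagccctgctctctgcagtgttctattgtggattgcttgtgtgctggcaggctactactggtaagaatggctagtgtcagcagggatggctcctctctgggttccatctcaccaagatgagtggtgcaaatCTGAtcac
Snord21: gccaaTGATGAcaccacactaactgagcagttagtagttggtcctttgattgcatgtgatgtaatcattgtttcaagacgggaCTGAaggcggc
Snord118: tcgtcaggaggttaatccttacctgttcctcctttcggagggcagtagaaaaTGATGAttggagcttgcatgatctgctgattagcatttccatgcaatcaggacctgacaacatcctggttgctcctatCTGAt
Snord15a: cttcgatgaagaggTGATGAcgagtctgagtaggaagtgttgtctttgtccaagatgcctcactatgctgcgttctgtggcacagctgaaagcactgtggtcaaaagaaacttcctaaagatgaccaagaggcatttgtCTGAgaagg
Snord65: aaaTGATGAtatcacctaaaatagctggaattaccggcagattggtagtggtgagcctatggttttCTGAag

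Snord22 lies at chr19:8725866-8725991 on the plus strand, within an annotated exon of Snhg1, and is 126 bases long. Snord17 (238 bases) lies at chr2:144265979-144266216 on the minus strand in an intron of Snx5. Snord21 (94 bases) lies at chr5:107904555-107904648 on the plus strand, within an annotated exon of Rpl5. Snord118 (135 bases) lies at chr11:69073427-69073561 on the plus strand with no host. Snord15a (148 bases) lies at chr7:99482785-99482932 on the minus strand in an intron of Rps3, and Snord65 (72 bases) at chr11:62604515-62604586 on the plus strand in an intron of 2410006H16Rik. The counting kept reads that matched a single place with at most 2 mismatches. Of the 68 members, 2 (Snord1b and Snord1c) match another annotated small RNA gene with 2 differences or fewer, so their counts are uncertain.

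Total counts ranged from 20905806 in metastatic CR2 to 91886163 in metastatic AS2. Metastatic CR2, primary CR2 (24909389) and metastatic CR1 (40586710) had the lowest totals. Primary CR1 had 76887592, within the range of the AS tumors (61237285 to 91886163). The difference of primary CR1 from the other CR tumors in the results below thus goes with depth, and the part of depth was not tested. Of a marker list for prostate epithelium, all 7 genes were counted, with a summed level of 1294 to 3466 CPM (counts scaled to a common library total of 1000000, here the TMM-normalized total). The trimmed mean of M-values (TMM) is edgeR's scaling. The list for lung lay between 0 and 0.167, that for T cells between 0.303 and 2.12 and that for B cells between 0.149 and 0.798 CPM. Between phenotypes, 1 of 5 tested genes for prostate epithelium was called higher and 1 of 2 for hepatocytes lower in CR tumors, and 0 for fibroblasts, endothelium, T cells, B cells and macrophages (edgeR's quasi-likelihood test). Over all genes tested, 5.66% were called higher and 5.72% lower. The part of these cell types in the results was not tested. In bulk tumors, fewer cells of a type and less RNA per cell cannot be told apart.

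A few members held most of the reads. Of all counts on members, pooled over the libraries, Snord17 took 24.2%, Snord15b 21.9%, Snord22 17.0%, Snord21 15.4%, Snord118 7.03% and Snord15a 6.57%. The libraries differed in this. The first 3, all over 100 bases, held 74.5% to 82.8% in AS tumors and primary CR1 and 34.6% to 37.0% in the other 3 CR tumors, while the share of Snord21 ranged from 1.78% to 38.7%. Per length, Snord21 had the highest mean level over the 8 tumors, with 4459 TMM-normalized CPM per kilobase of length, followed by Snord15b with 2629, Snord22 with 1626, Snord17 with 1229 and Snord118 with 1169. That rank came from 3 CR tumors, in which Snord21 had 5876 to 16580. It had 214 to 335 in AS tumors and 228 in primary CR1, where Snord22 had 600 to 3212 and 2051. Snord17, Snord21 and the 2 copies of Snord15 in Rps3 are guides for methylation of the large ribosomal RNA. Snord22 and Snord118, which is the RNA U8, act in the cutting of the ribosomal precursor. Of the 68 members, 60 had a count in at least 1 library, 21 had one in every library and 8 were at 0 throughout. Among the 8 were Snord64 and Snord107, both of the imprinted Snrpn region. A count of 0 allows up to 3 counts in a library, or 0.0326 to 0.144 CPM at these raw totals.

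Whether a short member was counted at all went with the library. This was measured on 422 other small RNA genes of 75 bases or less, none of them a member. They held 2.47 to 85.0 CPM of the raw total in primary AS1, primary CR1, metastatic AS1 and metastatic CR1, and 0.0292 to 0.120 in primary AS2, primary CR2, metastatic AS2 and metastatic CR2. The first 4 are called libraries with short-gene reads. Each combination of tumor type and phenotype holds 1 library of each kind, so this split into kinds is balanced over both comparisons. The amount was not, since metastatic CR1 held 85.0 and the other 3 held 2.47 to 6.30.

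Of the 30 members of 75 bases or less, 16 were counted only in the 4 libraries with short-gene reads, 6 in both kinds, 0 only in the other kind and 8 in none. Of the 27 members of 76 to 100 bases, 7 were counted only in the libraries with short-gene reads and 20 in both kinds. Of the 11 members over 100 bases, 10 were counted in both kinds, and Snord90 had a single count in 1 library without short-gene reads. Snord65 shows the pattern. It had 52 counts in primary AS1, 48 in primary CR1, 30 in metastatic AS1 and 258 in metastatic CR1, against 2 in metastatic CR2 and 0 in the other 3 libraries. Snord104, at 70 bases, and Snord49b, at 72 bases, were exceptions among short members. They were counted in every library, Snord104 from 258 to 3789 counts and Snord49b from 47 to 991.

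**Figure D1:**
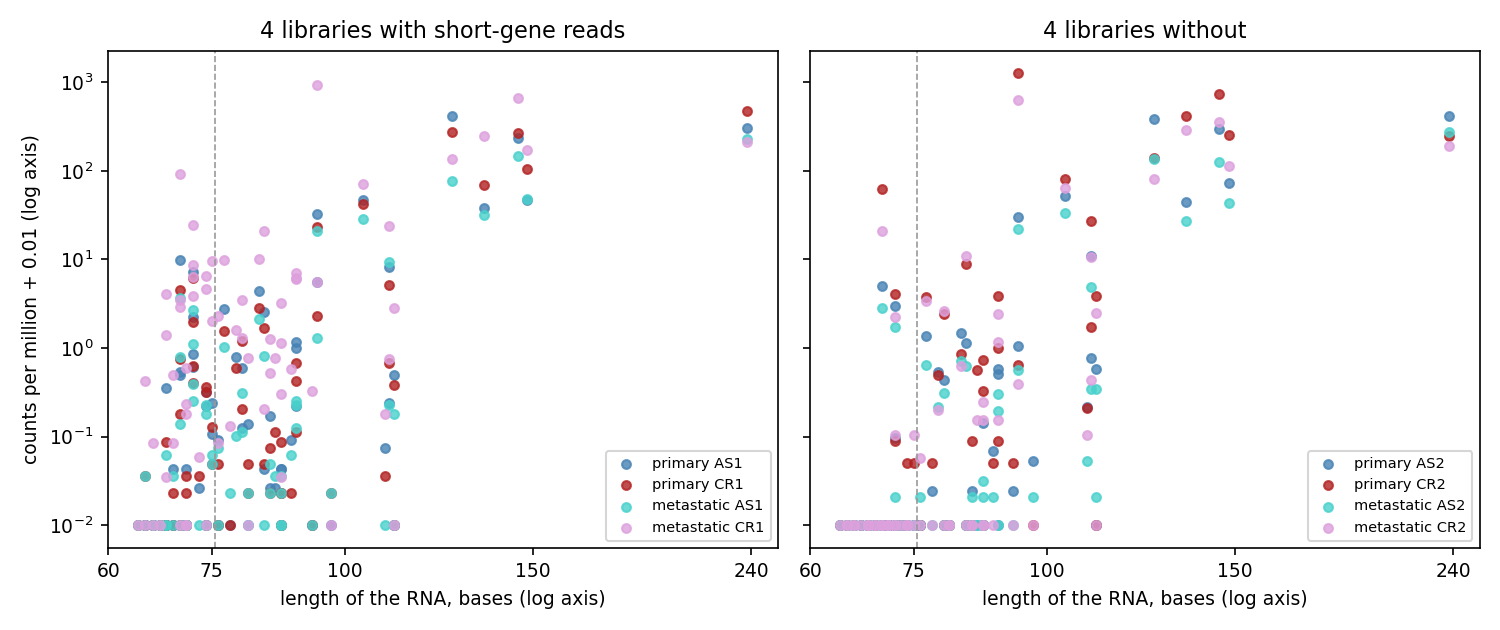
Level of each of the 68 members (CPM plus 0.01, log axis) against its length in bases (log axis), with 1 point per member and library, in the 4 libraries with short-gene reads (left) and the 4 without (right). The dashed line marks 75 bases. Left of it, 22 members had a count in the left panel and 6 in the right, while most members over 100 bases lay at similar heights in both.

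Summed over all members, the primary tumors AS1 and AS2 had 1173 and 1325 CPM of the raw total, and the primary tumors CR1 and CR2 had 1289 and 3263. The metastases AS1 and AS2 had 609 and 680, and the metastases CR1 and CR2 had 2736 and 1789. Primary CR2 stood highest and primary CR1 lay among the AS tumors. The level was 1762 ± 1002 in primary and 1453 ± 1011 in metastatic tumors (SD, n = 4 each), a difference smaller than the spread. It was 947 ± 356 in AS and 2269 ± 894 in CR tumors (SD, n = 4 each). The mean difference between phenotypes was 1.25 on the log2 scale over all members, 2.53 without the 3 members with the most counts and 0.80 without Snord21. Without Snord21 the level was 920 ± 350 in AS and 1554 ± 407 CPM in CR tumors (SD, n = 4 each), and the groups overlapped. The base of the scale mattered too. With mitochondrial genes, ribosomal RNA genes and Lars2 left out of the total, AS tumors had 741 to 1557 CPM over all members. Primary CR1 then had 1356, and primary CR2, metastatic CR1 and metastatic CR2 had 5167, 4203 and 2303.

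The first comparison asked whether the class moved with metastasis. By edgeR's quasi-likelihood test over 17104 genes, 26 of the 68 members passed the filter on low counts, and 0 of the 26 passed the adjusted threshold of 0.05 in either direction. The same holds for all genes, of which 0.0% were called higher and 0.0% lower. DESeq2 and edgeR's exact test also called 0 members. At an unadjusted p under 0.05, 0 members were higher and 2 were lower, Snord22 and Snord17, where 1.56% of all genes tested were higher and 1.12% lower. The same 2 members (7.69% of the 26) had all 4 metastatic tumors below all 4 primary tumors, where 0.848% of all genes tested did, and 0 members had them all above, where 0.854% did. The fall of Snord22 was known when the class was chosen, so nothing is read from that share. The median log2 fold change was 0.50 over the 26 members and -0.03 over all genes tested. Its sign turned with phenotype in the fit, to -0.21 with phenotype as a covariate (10 members positive and 16 negative), and to values from -0.25 to -0.06 when tumors were paired as blocks in the 4 ways that phenotype allows. Members passed the filter partly through the group in which they were high, so these counts describe the tested members and not the class.

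Snord22, a processing factor for the small-subunit ribosomal RNA, had 24014 and 22158 normalized counts in the primary tumors AS1 and AS2, and 15330 and 10153 in the primary tumors CR1 and CR2. The metastases AS1 and AS2 had 4487 and 7251, and the metastases CR1 and CR2 had 9672 and 4170. The groups did not overlap, although primary CR2 and metastatic CR1 were close. Its log2 fold change of -1.49 had a standard error of 0.36, an unadjusted p of 0.0022 and an adjusted p of 0.997 by edgeR's quasi-likelihood test. Snord22 was chosen with this fall known, so the value is a description. It stood at -1.96 in AS tumors and -0.86 in CR tumors, and the difference between the phenotypes was not shown (interaction 1.08 on the log2 scale, standard error 0.62, adjusted p = 0.964, edgeR's quasi-likelihood test). It was -1.44 in the libraries with short-gene reads and -1.51 in those without.

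Snord22 was the only member in Snhg1. The host itself is not among the genes counted. The 7 other small RNA genes counted there, named SNORD26 to SNORD31 and snR56, are 65 to 76 bases long and had at most 48 counts each in metastatic CR1 and 17 counts together in the other 7 libraries, too few for a comparison with Snord22.

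Snord17 had 17724 and 24415 normalized counts in the primary tumors AS1 and AS2, and 25897 and 18125 in the primary tumors CR1 and CR2. The metastases AS1 and AS2 had 13226 and 14817, and the metastases CR1 and CR2 had 14869 and 9795. The 8 tumors differed less in this RNA than in any other of the 6 members with the most counts. Its log2 fold change of -0.71 had a standard error of 0.22, an unadjusted p of 0.0090 and an adjusted p of 0.997 by edgeR's quasi-likelihood test. It lay between -0.57 and -0.81 within each phenotype and each kind of library. Snx5, which holds Snord17, and the hosts of the other members tested were not called in this comparison (0 of 17 hosts, median log2 fold change -0.15, edgeR's quasi-likelihood test).

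**Figure D2:**
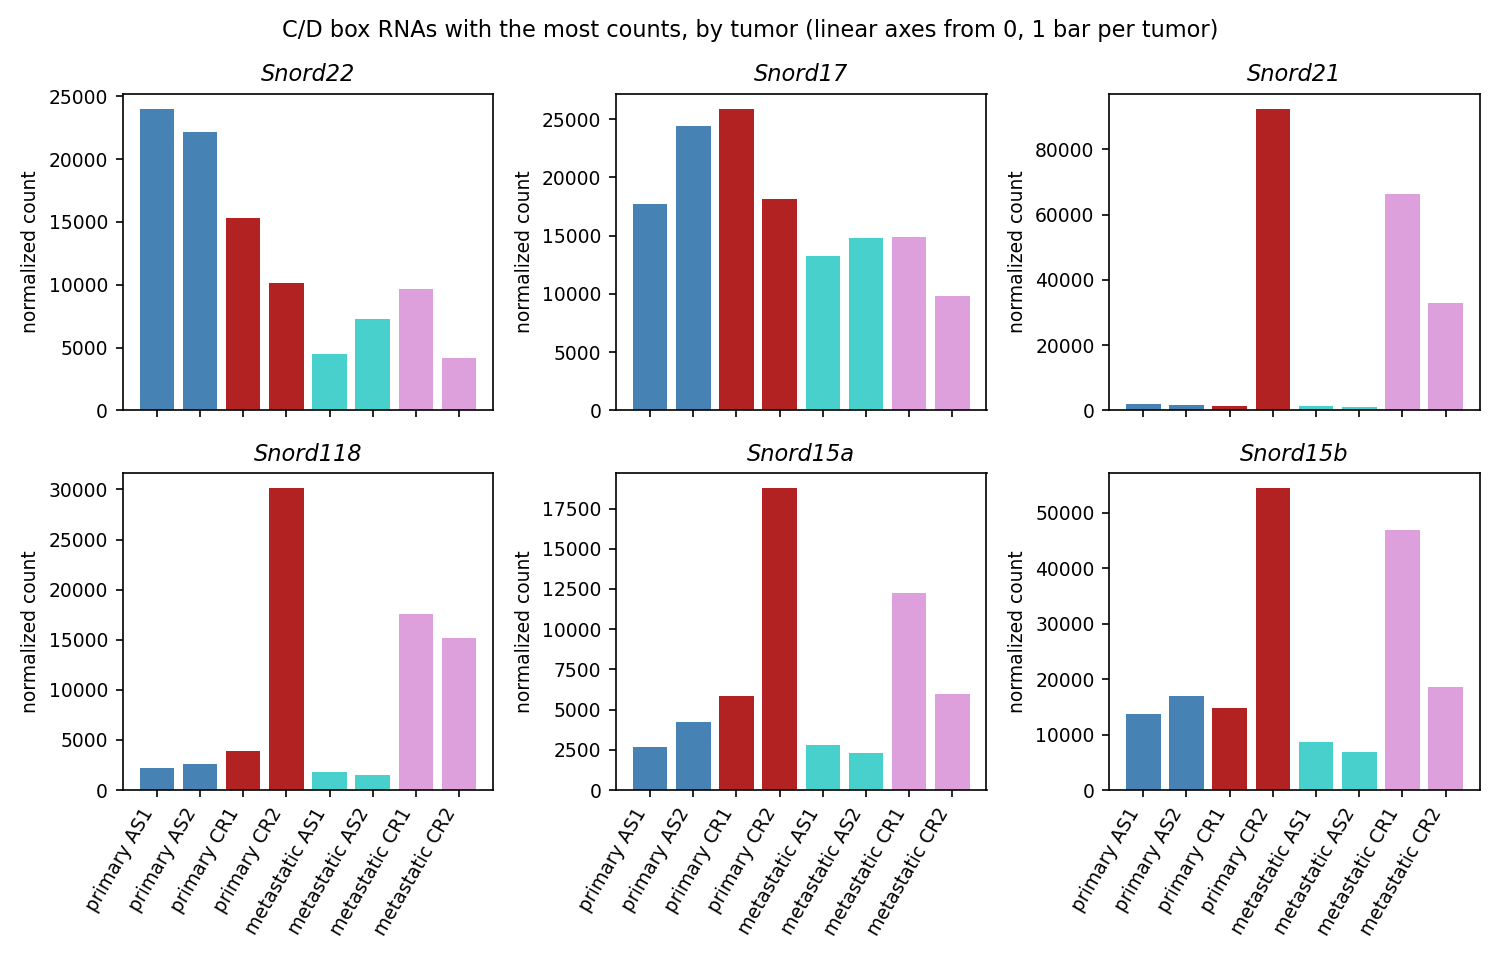
Normalized counts (linear axes from 0) of the 6 members with the most counts, with 1 bar per tumor colored by tumor type and phenotype. Snord22 and Snord17 are lower in all 4 metastatic tumors, while Snord21, Snord118 and Snord15a are high in primary CR2 and in both metastatic CR tumors.

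The fold changes of the other members are given for AS and CR tumors separately, and the interaction, which tests the difference between them, passed the adjusted threshold for 0 members. In AS tumors only, 25 of 26 members tested were lower in metastases and the median log2 fold change was -1.06. At an unadjusted p under 0.05, 13 of the 26 were lower and 0 higher there, where 3.0% of all genes tested were lower and 4.28% higher, and 0 members passed the adjusted threshold (edgeR's quasi-likelihood test with 2 tumors against 2). In CR tumors only, 23 of 29 members tested were higher in metastases, the median was 1.0, and 0 members passed either threshold, where 0.915% of all genes tested were higher and 1.56% lower at an unadjusted p under 0.05. Single libraries moved the median. Over all tumors it was -1.06 without metastatic CR1, with 0 of 26 members positive, and 1.32 without primary CR2. It was 1.97 in the libraries with short-gene reads and -1.19 in those without, with 0 of 21 positive. Length went with direction as well. Of the 17 tested members of 100 bases or less, 15 had a positive fold change, with a median of 0.75. Of the 9 longer ones, 1 did, with a median of -0.31. This contrast was absent without metastatic CR1, where no tested member of either length was positive.

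The tested members with the smallest p-values on the positive side were Snord99, Snord100 and Snord65, which are 72 to 74 bases long and guide methylation of ribosomal RNA. Their log2 fold changes were 3.61, 3.09 and 2.40 with standard errors of 1.77 to 1.90. Snord99, in Snhg12, had 262 counts in metastatic CR1, 27 in primary CR1, 13 each in primary AS1 and metastatic AS1, 1 in primary CR2 and 0 in the remaining 3 libraries. Snord100, in Rps12, had 187 counts in metastatic CR1, 17 to 24 in the other libraries with short-gene reads and 0 in the 4 without. A single library, metastatic CR1, thus held most counts of all 3, and without it the log2 fold changes were -1.28, -0.97 and -1.18. Snord8, which lies in Chd8, came after Snord22 and Snord17 on the negative side with -1.04 (standard error 0.71).

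The second comparison asked how the class follows phenotype, which is also the library series. It was fitted over 17797 genes with tumor type as a covariate. Of the 29 members tested, 9 were higher in CR tumors (31.0%) and 0 lower at an adjusted p under 0.05 (edgeR's quasi-likelihood test, adjusted by Benjamini-Hochberg), where 5.66% of all genes tested were called higher and 5.72% lower. The fold change was positive for 27 of the 29, with a median of 1.90 on the log2 scale against -0.01 over all genes tested. The exceptions were Snord22 (-0.32) and Snord17 (-0.07), neither of which was called. All 4 CR tumors lay above all 4 AS tumors for 4 members (13.8%), which were Snord87, Snord45c, Snord15a and Snord118, where 8.96% of all genes tested did, and 0 members lay below in the same way, where 9.49% did. As in the first comparison, members passed the filter partly through the group in which they were high, Snord87 among them, so these shares describe the tested members only.

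Among the members that act in precursor cutting, Snord118 rose. The AS tumors had 2222 and 2608 normalized counts (primary) and 1833 and 1459 (metastatic). The CR tumors had 3874 and 30121 (primary) and 17556 and 15217 (metastatic). Each CR tumor was above each AS tumor, with primary CR1 nearest to them. The rise was 3.05 on the log2 scale with a standard error of 0.53 and an adjusted p of 0.012 by edgeR's quasi-likelihood test. Snord22 did not follow, and Snord13, which like Snord118 lies outside any host and acts in base acetylation of the small ribosomal RNA, had 0.89 on that scale (standard error 0.30, adjusted p = 0.088, edgeR's quasi-likelihood test).

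Snord21 showed the widest range of any abundant member. The AS tumors had 1870 and 1753 normalized counts (primary) and 1224 and 1194 (metastatic). The CR tumors had 1269 and 92469 (primary) and 66402 and 32769 (metastatic). Primary CR1 lay inside the AS range, while the other 3 CR tumors lay far above it. The rise was 5.01 on the log2 scale with a standard error of 1.02 and an adjusted p of 0.020 by edgeR's quasi-likelihood test.

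Of the copies of Snord15, 1 passed the threshold. Snord15a had 2290 to 4200 normalized counts in AS tumors, and 5846 and 18763 (primary) and 12275 and 5951 (metastatic) in CR tumors. Its log2 fold change of 1.83 had a standard error of 0.38 and an adjusted p of 0.021 by edgeR's quasi-likelihood test. Snord15b, with 6810 to 17047 in AS tumors and 14818 to 54431 in CR tumors, had a log2 fold change of 1.61 and an adjusted p of 0.051 by the same test, just outside the threshold.

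The other 6 members called were less abundant. Snord45c, in Rabggtb, had 16.3 to 34.1 normalized counts in AS tumors, 66.1 in primary CR1 and 137 to 245 in the other CR tumors (log2 fold change 2.75). Snord104, which guides methylation of the large ribosomal RNA and lies outside any host, had 150 to 567 in AS tumors, 247 in primary CR1 and 1095 to 6574 in the other CR tumors (3.42). Snord33 and Snord35a, both in Rpl13a, had log2 fold changes of 3.20 and 3.08. Snord67, in Ckap5, guides methylation of the spliceosomal U6 RNA and had 9.8 to 33 normalized counts in AS tumors, 20.8 in primary CR1 and 129 to 279 in the other CR tumors (2.87). Snord87, in Snhg6, had 3 counts over all AS tumors and 160 over all CR tumors, of which 131 were in metastatic CR1. The ratio at these depths was 104, with a 95% exact binomial interval of 35.0 to 510 that covers counting error only.

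Primary CR1 was often low among the called members. For 5 of the 9 called members (Snord21, Snord33, Snord35a, Snord67 and Snord104) it was at or below the highest AS tumor. These members were chosen for being called, so this describes them alone. Among members not called, Snord49b had 343 normalized counts in primary CR1, above primary CR2 and above metastatic CR2, which had 117. Without primary CR1, 15 members were called higher, where 8.97% of all genes tested were, and 0 lower, where 12.6% were. In primary tumors only, 2 against 2, the median log2 fold change was 0.56 and 0 members were called, where 0.00582% of all genes tested were called higher and 0.0175% lower. In metastatic tumors only, the median was 3.26 and 8 of 26 members were called higher and 0 lower, where 2.63% and 2.86% of all genes tested were. The test of this difference is the interaction of tumor type and phenotype. Of 36 members tested among 18889 genes, 0 passed the adjusted threshold and 6 were higher at an unadjusted p under 0.05, where 1.2% of all genes tested were, and 0 were lower, where 1.54% were. DESeq2 gave 10 higher and 0 lower, where 299 and 271 of 18889 genes were. By adjusted p it also called 0 members, where 2 genes were called higher and 0 lower. Among the 6 were Snord110, Snord66 and Snord71, which were tested in neither main comparison. They had 166, 82 and 51 counts in metastatic CR1 and at most 21 in any other library. Members passed this filter too partly through the group in which they were high, so these shares describe the tested members only. The largest of the interaction values for a member counted in every library was that of Snord14e (4.59 on the log2 scale, standard error 1.34, adjusted p = 0.964, edgeR's quasi-likelihood test), which had 249 counts in metastatic CR1 and 17 to 72 in the other 7 libraries.

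**Figure D3:**
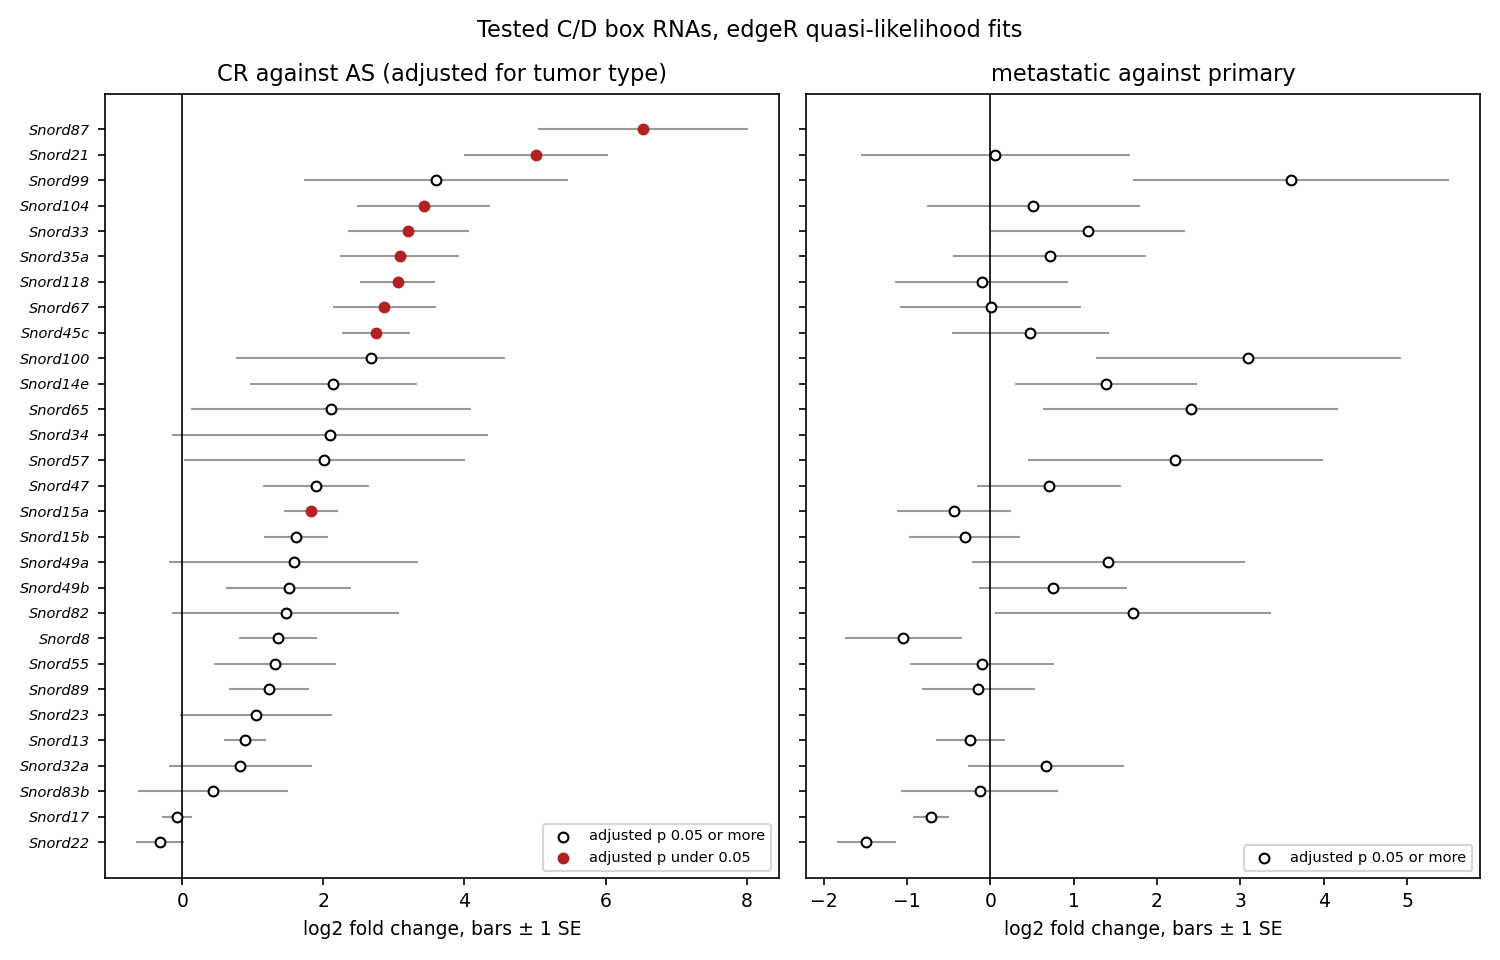
Log2 fold changes of the 29 members tested between phenotypes (left) and, for the 26 of them tested there, between tumor types (right), with bars of 1 standard error, ordered by the left panel. Filled points mark an adjusted p under 0.05. There are 9 on the left and 0 on the right, and Snord22 and Snord17 are lowest on the left and negative on the right.

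The number called between phenotypes depended on single libraries. It was 15 without primary CR1, 6 without metastatic CR2 (3.13% of all genes tested called higher), 4 without primary AS1 (1.87%), and 2 without primary AS2 (1.42%), primary CR2 (2.42%) or metastatic CR1 (1.62%). It was 0 without metastatic AS1 (1.04%) or metastatic AS2 (1.07%). The share over all genes fell too, from 5.66%, in each of these fits other than that without primary CR1. The median log2 fold change was between 0.69 and 3.11 in these 8 fits. The lowest was that without metastatic CR1, where 18 of 29 members were positive and 11 negative, and in primary tumors only 18 were positive and 10 negative. In the libraries with short-gene reads the median was 1.78, all 32 members tested had a positive fold change and 0 were called, where 0.453% of all genes tested were called higher and 0.366% lower. In the libraries without, the median was 1.76 and 13 of 21 members were called higher, where 6.56% of all genes tested were. There 1 member was called lower, Snord22, with a log2 fold change of -0.97 (adjusted p = 0.022, edgeR's quasi-likelihood test), where 7.95% of genes were. In the libraries with short-gene reads the value for Snord22 was 0.24 (adjusted p = 0.903, edgeR's quasi-likelihood test). Each kind holds 1 library per combination of tumor type and phenotype. The fits within a kind thus had no replicate of any combination, and their calls rest on very little spread between tumors. With the kind of library as a term, 6 members were called higher, where 4.03% of all genes tested were.

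The highest level of a member was mostly in 1 of 2 tumors. Of the 29 members tested in either comparison, 18 were highest in metastatic CR1 and 9 in primary CR2, and 18 were lowest in metastatic AS2, with ties counted. These ranks describe the tested members only, which passed the filter partly through the group in which they were high. Metastatic CR2 lay above every AS tumor for each of the 9 called members, which were chosen for being called, so this describes them alone. Over the 29 members it was highest in 0 and lowest in 10, with ties counted. Metastatic CR1 and primary CR2 also had the lowest normalization factors by TMM, 0.843 and 0.811, where the others had 1.02 to 1.15. Scaled by library totals, 9 members were called higher between phenotypes, where 3.14% of all genes tested were, and the median was 1.68. Snord35a was not among them (adjusted p = 0.052, edgeR's quasi-likelihood test). DESeq2 called 12, where 10.7% of all genes tested were.

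The hosts had smaller fold changes than the members in them. Between phenotypes, 24 tested members lay in 18 tested hosts. The median log2 fold change was 1.86 over the members and 0.35 over their hosts, and the member was above its host in 23 of 24 pairs, Snord17 in Snx5 being the exception. Of the 18 hosts, 2 were higher (Rpl5, 1.57, adjusted p = 0.027, and Hspa8, 0.85, adjusted p = 0.037) and Gm15832 was lower (-0.76, adjusted p = 0.023, edgeR's quasi-likelihood test). Over all genes tested, 5.66% were called higher and 5.72% lower, so these few calls are not read as a result about hosts. Rpl13a, which holds 4 tested members with log2 fold changes of 0.82 to 3.20, was at -0.13.

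The value of Rpl5 holds the reads of Snord21 if a read was counted for both genes, which the sources used here do not state. Rpl5 had 26991 to 31297 normalized counts in AS tumors, 39789 and 130859 in primary CR tumors and 114155 and 67328 in metastatic CR tumors. Less the counts of Snord21, it had 25796 to 30073 in AS and 34559 to 47753 in CR tumors. The mean log2 difference between phenotypes was 1.44 before and 0.50 after that subtraction. For Hspa8, which encodes a chaperone and holds Snord14e, it was 0.85 before and 0.84 after. For Rps3, less the counts of Snord15a and Snord15b, it was 0.55 before and 0.06 after. Snord15a lies in an intron of Rps3, so its reads need not be in the count of Rps3. That subtraction may take off too much, and nothing is read from it.

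**Figure D4:**
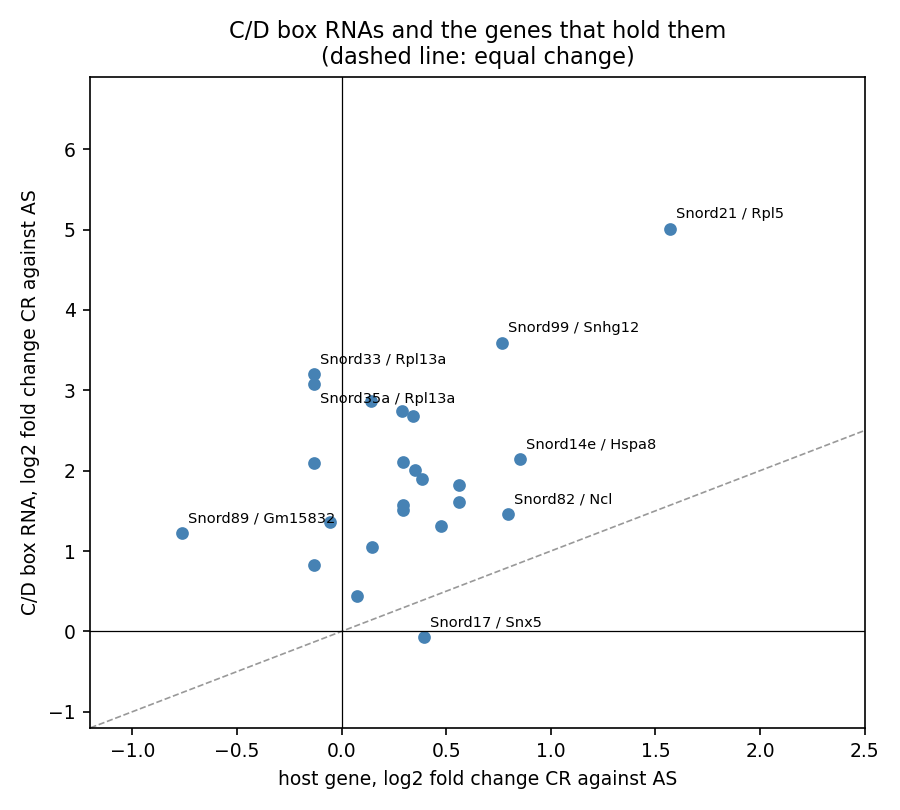
Log2 fold change between phenotypes of 24 members (vertical axis) against that of the gene holding each (horizontal axis), with 1 point per member and a dashed line where both are equal. The points lie above the line for 23 of 24 members, and Rpl5 with Snord21 is farthest to the right.

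The proteins that bind and assemble C/D RNAs had a smaller median fold change than the RNAs. Of 4 core and 7 assembly genes, 3 were higher in CR tumors and 0 lower. By edgeR's quasi-likelihood test they were Nop58, a core protein (0.71 on the log2 scale, adjusted p = 0.038), Ruvbl1, an ATPase of the assembly complex (0.78, adjusted p = 0.025), and Nufip1, an assembly factor (0.85, adjusted p = 0.014). Fbl, the methyltransferase, stood at 0.26 (standard error 0.17, adjusted p = 0.343, edgeR's quasi-likelihood test). The median of the 11 was 0.35. Of 11 genes of the complex that forms around the RNA U3 on the ribosomal precursor, 2 were higher (Mphosph10, 0.92, adjusted p = 0.046, and Wdr43, 0.75, adjusted p = 0.042) and 0 lower by edgeR's quasi-likelihood test. Of 7 genes for trimming, capping and decay of these RNAs, 1 was higher (Dis3, an exosome nuclease, 0.74, adjusted p = 0.019) and 0 lower by edgeR's quasi-likelihood test. Beside each of these lists, 5.66% of all genes tested were called higher and 5.72% lower. Between tumor types, 0 of these 29 genes were called (edgeR's quasi-likelihood test), as were 0.0% of all genes tested. At an unadjusted p under 0.05, 0 of them were higher and 0 lower, where 1.56% and 1.12% of all genes tested were. DESeq2 also called 0 of the core and assembly genes between tumor types.

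H/ACA box RNAs guide the conversion of uridine to pseudouridine, and small Cajal body RNAs act on spliceosomal RNA. Of the 44 tested between phenotypes, 22 were higher and 0 lower in CR tumors (edgeR's quasi-likelihood test), where 5.66% and 5.72% of all genes tested were, with a median of 1.71 on the log2 scale, next to 1.90 for the 29 C/D members. The H/ACA members alone were called in 20 of 36 cases, with a median of 1.86. Between tumor types, 0 of 43 were called, 3 were lower and 0 higher at an unadjusted p under 0.05, where 1.12% and 1.56% of all genes tested were, and the median was -0.08. The difference between the classes was not tested.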

How the data were processed

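Per the study's methods, the authors isolated total RNA, depleted ribosomal RNA, made stranded paired-end libraries, mapped reads to mm10 with Bowtie, kept reads matching a single place with at most 2 mismatches and deposited raw counts per gene without normalization. The submitters' processing notes also name CASAVA 1.8.2 and TopHat2 2.0. The counting tool and annotation release are not given in the sources used here, so whether a read in a host exon was counted for host and snoRNA is unknown. Small RNA libraries were not analysed here.

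Members and gene lists were chosen with earlier results of these data known. Counts were filtered with filterByExpr, normalized by TMM and tested in R 4.3.3 with edgeR 4.0.16 (quasi-likelihood test, adjusted p by Benjamini-Hochberg over all genes tested, threshold 0.05). All 8 tumors entered the fits. Tumor type was the only term of the first comparison and a covariate of the second. The fits were run on simulated counts with known changes, in which genes varied independently and libraries did not differ in short-gene reads. That run does not bear on such differences. For normalized counts, each count was divided by its library's TMM-scaled total and multiplied by the mean of these totals. Genes named are Snord22, the 5 most abundant members per length, members past the threshold, the 3 smallest p-values in each direction, members outside hosts, hosts and protein lists. The remarks on Snord14e, on the genes in Snhg1, on the libraries with short-gene reads (over 1 CPM on other small RNA genes) and on host counts less member counts were chosen after their values were seen. Alternatives were DESeq2 1.42.0, edgeR's exact test, other scalings, filters, covariates and thresholds, subsets, 4 possible pairings as a block and each tumor left out. Sequences come from the GENCODE M21 transcripts. Precision depends on 2 tumors per combination of type and phenotype.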

Additional observations from a re-analysis of the deposited data

Results flagged for a closer look

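Of 60 sets of 4 tumors examined (the 4 primary or the 4 metastatic tumors, for the 29 members tested in either comparison and the summed level), 22 had 1 tumor whose gap to the next was past Dixon's critical value for 4 samples. That value flags about 1 set in 20 by chance only where the values come from a single normal distribution. The values here are levels and counts on a linear scale. Several sets flagged for metastatic CR1 are of short members that were hardly counted in the libraries without short-gene reads. The rate by chance is therefore not known for these sets, and nothing is read from the number flagged. Each set mixes 2 AS and 2 CR tumors, and the members share their libraries.

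In primary CR2, 9 values stood above the other 3 primary tumors. The summed level was 3263 CPM (others 1172.7 to 1324.9). The normalized counts were 92469 for Snord21 (others 1269.4 to 1870.1), 54431 for Snord15b (13768.5 to 17047.1), 30121 for Snord118 (2222.2 to 3874.4) and 4539 for Snord104 (246.6 to 566.9). They were 650 for Snord33, 285 for Snord35a, 279 for Snord67 and 52.9 for Snord87, each above all of the other 3.

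In metastatic CR1, 13 values stood above the other 3 metastatic tumors. The normalized counts were 6574 for Snord104 (others up to 1095.3), 1719 for Snord49b (90.7 to 156.3), 710 for Snord32a (32.3 to 121.7) and 612 for Snord49a (0 to 64.6). They were 455 for Snord99, 448 for Snord65, 432 for Snord14e, 390 for Snord83b, 324 for Snord100, 272 for Snord57, 246 for Snord34, 227 for Snord87 and 111 for Snord55. Metastatic CR1 is a library with short-gene reads and primary CR2 is not, and the part of that difference in these values was not tested.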

How the results depend on the processing

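Of 580 comparisons of a value with an alternative, 465 kept direction and side of the threshold, or for counts and levels stayed near. The 0 calls between tumor types held under every alternative fitted at an adjusted threshold, and 2 members were lower at an unadjusted 0.05. At that threshold 6 of 60 members were higher and 2 lower without a filter on low counts, where 1192 and 240 of 31875 genes were. Without metastatic CR1, 4 of 26 were lower, where 157 of 17691 genes were. In AS tumors only, 13 of 26 were lower, where 3.0% of genes were. In CR tumors only, 0 of 29 passed, where 0.915% of genes were higher and 1.56% lower. In the libraries with short-gene reads, 4 of 32 were higher and 1 lower, where 142 and 45 of 17207 genes were. Between phenotypes, 9 of 29 members were higher, where 5.66% of all genes tested were. Without a filter on low counts 31 of 60 were, where 1322 of 31875 genes were. That fit also holds members such as Snord95, counted only in metastatic CR1. In primary tumors only and in the libraries with short-gene reads 0 were higher, where 0.00582% and 0.453% of genes were. In the libraries without short-gene reads 1 was lower, where 7.95% of genes were. That fit had 1 library per combination of tumor type and phenotype. The counts of members higher were 12 with DESeq2 (10.7% of all genes tested), 10 with the size factors of DESeq2 (RLE, 1129 of 17797 genes) and 9 with library totals (3.14%). Leaving out each tumor gave 0 to 15. For core and assembly proteins, DESeq2 called 5 higher and 1 lower in CR tumors, where 1904 and 1659 of 17797 genes were. Leaving out a tumor gave 0 to 3 higher and 0 to 1 lower for them. For the H/ACA and Cajal body RNAs it gave 1 to 28 higher and 0 to 3 lower. In the fits with a tumor left out, 1.04% to 8.97% of all genes tested were higher. Lower were from 241 of 18503 genes to 2336 of 18491.

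The mean log2 difference of the summed level between phenotypes, 1.25, was 2.53 without the 3 members with the most counts and 1.04 to 1.49 with each tumor left out. Between tumor types it was -0.42, and -0.82 to -0.08 with each tumor left out. Between tumor types, directions turned for Snord100 (-0.51 in AS tumors only, and -0.97 to 3.58 with each tumor left out), Snord65 (-1.14, and -1.18 to 3.15), Snord99 (-0.35, and -1.28 to 4.38) and Snord8 (0.37 in libraries with short-gene reads). Between phenotypes they turned for Snord17 (0.065 in primary tumors only, 0.37 in libraries with short-gene reads, and -0.22 to 0.065 with each tumor left out) and Snord22 (0.25 in metastatic tumors only, 0.24 in libraries with short-gene reads). The cause was not tested.

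No paired analysis was possible because the labels do not say which primary tumor each metastasis matches. The 4 pairings possible within phenotypes, each fitted as a block, called 0 members and turned the median log2 fold change from 0.50 to between -0.25 and -0.06. The alternatives on short-gene reads, member length, Snord21 and mitochondrial genes were chosen after seeing the data. The interaction was not refitted with each tumor left out.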
